A study of Mus musculus with 3 samples.

Results

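Transcript levels of 50 genes of glucose breakdown were described in the mouse osteocytic cell line IDG-SW3 after parathyroid hormone (PTH). The genes were taken by symbol from a list of enzymes and transporters and placed in 5 groups: 4 glucose and lactate transporters, 19 glycolytic genes, 9 genes of pyruvate entry into the mitochondrion, 14 genes of the tricarboxylic acid (TCA) cycle and 4 genes of the pentose phosphate pathway. All 50 symbols were found among the 25410 symbols in the data. The samples were 3 RNA-seq libraries, called replicates 1, 2 and 3, which the series' design text calls biological replicates. They form 1 group: IDG-SW3 cells at day 35 of differentiation that had received 100 nM PTH for 24 h before RNA was collected. All 3 share the line's conditional T antigen, collagen-coated plates, and an osteogenic medium with serum, ascorbic acid and beta-glycerol phosphate and without interferon-gamma; the line is a model of late osteoblasts and osteocytes in culture, not of bone. Vehicle-treated cells were not analysed here, so no value below is an effect of PTH.

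Glycolysis splits glucose into pyruvate in the cytosol. Pyruvate is then reduced to lactate, which leaves the cell through monocarboxylate transporters, or is oxidised by the pyruvate dehydrogenase complex to acetyl-CoA, which feeds the TCA cycle in the mitochondrial matrix. The pentose phosphate pathway branches off at glucose 6-phosphate and yields NADPH and ribose phosphate. Cells of the osteoblast lineage are known to take up much glucose and to release much of it as lactate even where oxygen is plentiful. PTH, whose receptor raises cyclic AMP, is known to promote this aerobic glycolysis in osteoblasts.

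The deposited values were whole numbers per transcript row and were read as read counts; they summed to 35195518, 37299517 and 45240005 in replicates 1, 2 and 3. Rows of a gene were summed, and levels are given as RPKM, which is the count per kilobase of transcript, scaled to the total count of the library in units of 1000000. Osteoblast-lineage markers were high: Sparc, a matrix glycoprotein, had 6409 ± 408 RPKM (SD, n = 3), Col1a2 2946 ± 90.4 RPKM and Col1a1 488 ± 42.5 RPKM. Of the osteocyte markers, Pdpn had 156 RPKM and Phex 9.05 RPKM, while Dmp1, Mepe, Fgf23 and Sost had means under 1 RPKM. Dmp1 had 77, 115 and 6 counts and Sost 2, 0 and 0 counts in replicates 1, 2 and 3. By the test explained below, 8 of 12 osteoblast and osteocyte markers exceeded 1 RPKM, against 2 of 6 adipocyte, 1 of 6 macrophage and 1 of 6 endothelial markers, and 43.2% of all genes tested did; the highest of 6 skeletal muscle markers had 0.245 RPKM. The highest of these other markers were Lyz2 (12.9 ± 1.10 RPKM) and Fabp4 (9.72 ± 3.19 RPKM). All 12 osteoblast and osteocyte markers had 1 row per symbol. Several rows were held by 1 adipocyte, 1 skeletal muscle, 1 macrophage and 2 endothelial markers. Symbols with several rows were more often at 0, so low values of these markers are not read as low expression. Among markers with 1 row, 2 of 5 adipocyte, 0 of 5 skeletal muscle, 1 of 5 macrophage and 1 of 4 endothelial markers exceeded 1 RPKM.

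The start regions of the genes show letters that are background to their control. Hypoxia-inducible factor, a regulator of glycolytic genes, binds sites built on the core ACGTG or GCGTG, and the full cyclic AMP response element is TGACGTCA. The 250 bases before the RefSeq start (GRCm38.p6) of the most abundant transporter and the most abundant enzyme are shown because these genes head the list of levels. Each is given 5′ to 3′ on the plus strand, which is the strand of both genes, with every ACGTG or GCGTG, read on either strand, in capitals. Slc16a1 lies at chr3:104638414-104638663 and Pgk1 at chrX:106186850-106187099.
Slc16a1: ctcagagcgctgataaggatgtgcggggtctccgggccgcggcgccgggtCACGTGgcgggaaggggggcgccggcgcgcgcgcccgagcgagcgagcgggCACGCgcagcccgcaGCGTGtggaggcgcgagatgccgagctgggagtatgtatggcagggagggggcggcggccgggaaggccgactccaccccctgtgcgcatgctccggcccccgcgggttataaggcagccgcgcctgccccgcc
Pgk1: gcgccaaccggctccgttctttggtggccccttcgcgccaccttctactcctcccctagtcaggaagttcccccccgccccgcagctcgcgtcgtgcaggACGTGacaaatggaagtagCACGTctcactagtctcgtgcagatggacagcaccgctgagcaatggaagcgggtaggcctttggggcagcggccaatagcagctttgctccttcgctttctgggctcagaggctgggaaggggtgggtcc
Slc16a1 held 4 matches, of which 2 overlap in CACGTG, and Pgk1 held 2. Of the 48 genes matched in the RefSeq table, 18 (37.5%) held ACGTG on either strand, against 18.5% of the 27025 genes in the table. A gene was counted where any of its windows held the letters. The 48 genes had 70 windows, and their number of windows per gene was not compared with that of all genes. GCGTG was in 30 of the 48 (62.5%), against 30.9% of all genes. The windows of the 48 genes were also richer in G and C, at 59.4% on average against 53.2% for all genes, and the part of base composition in these shares was not tested. TGACGTCA was in 3 of the 48 (Ldha, Mdh2 and Ogdh; 6.25%, against 1.77% of all genes). These are matches of letters and not measured binding sites.

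Most of the 50 genes were well expressed. Each level was tested two-sided against 1 RPKM and against 10 RPKM with edgeR's quasi-likelihood test, with p-values adjusted over the 21044 genes tested; a gene is called above or below where its adjusted p was under 0.05, and unresolved otherwise. Against 1 RPKM, 43 of the 50 were above, compared with 43.2% of all genes tested, and 1 (Pfkm) was below, compared with 13.5%. Another 3 (Ldha, Pdk2 and Idh1) were unresolved, and 3 (Slc16a3, Pfkfb3 and Pcx) were listed at 0 in every library and could not be tested. Against 10 RPKM, 34 were above, compared with 20.6% of all genes tested, 11 were below, compared with 74.0%, and 2 (Dlat and Idh3g) were unresolved. The median over the 50 was 20.8 RPKM, while the median over all genes tested was 0.738 RPKM.

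How a gene is laid out in the files moved with its value. In these data, 8 of the 50 genes had several rows per symbol: Slc16a3, Hk1, Pfkm, Pfkfb3, Aldoa, Ldha, Pcx and Idh1. The highest of the 8, Aldoa, had 6.05 RPKM, while 41 of the 42 genes with 1 row were above 1 RPKM (45.4% of all tested symbols with 1 row were), 34 were above 10 RPKM (22.2%) and 6 were below it (72.0%). Over all protein-coding symbols, 31.73% of those with several rows were at 0 in every library, against 2.657% of those with 1 row. A low value of these 8 genes is therefore not read as low expression; the part of the counting in it was not tested.

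**Figure D1:**
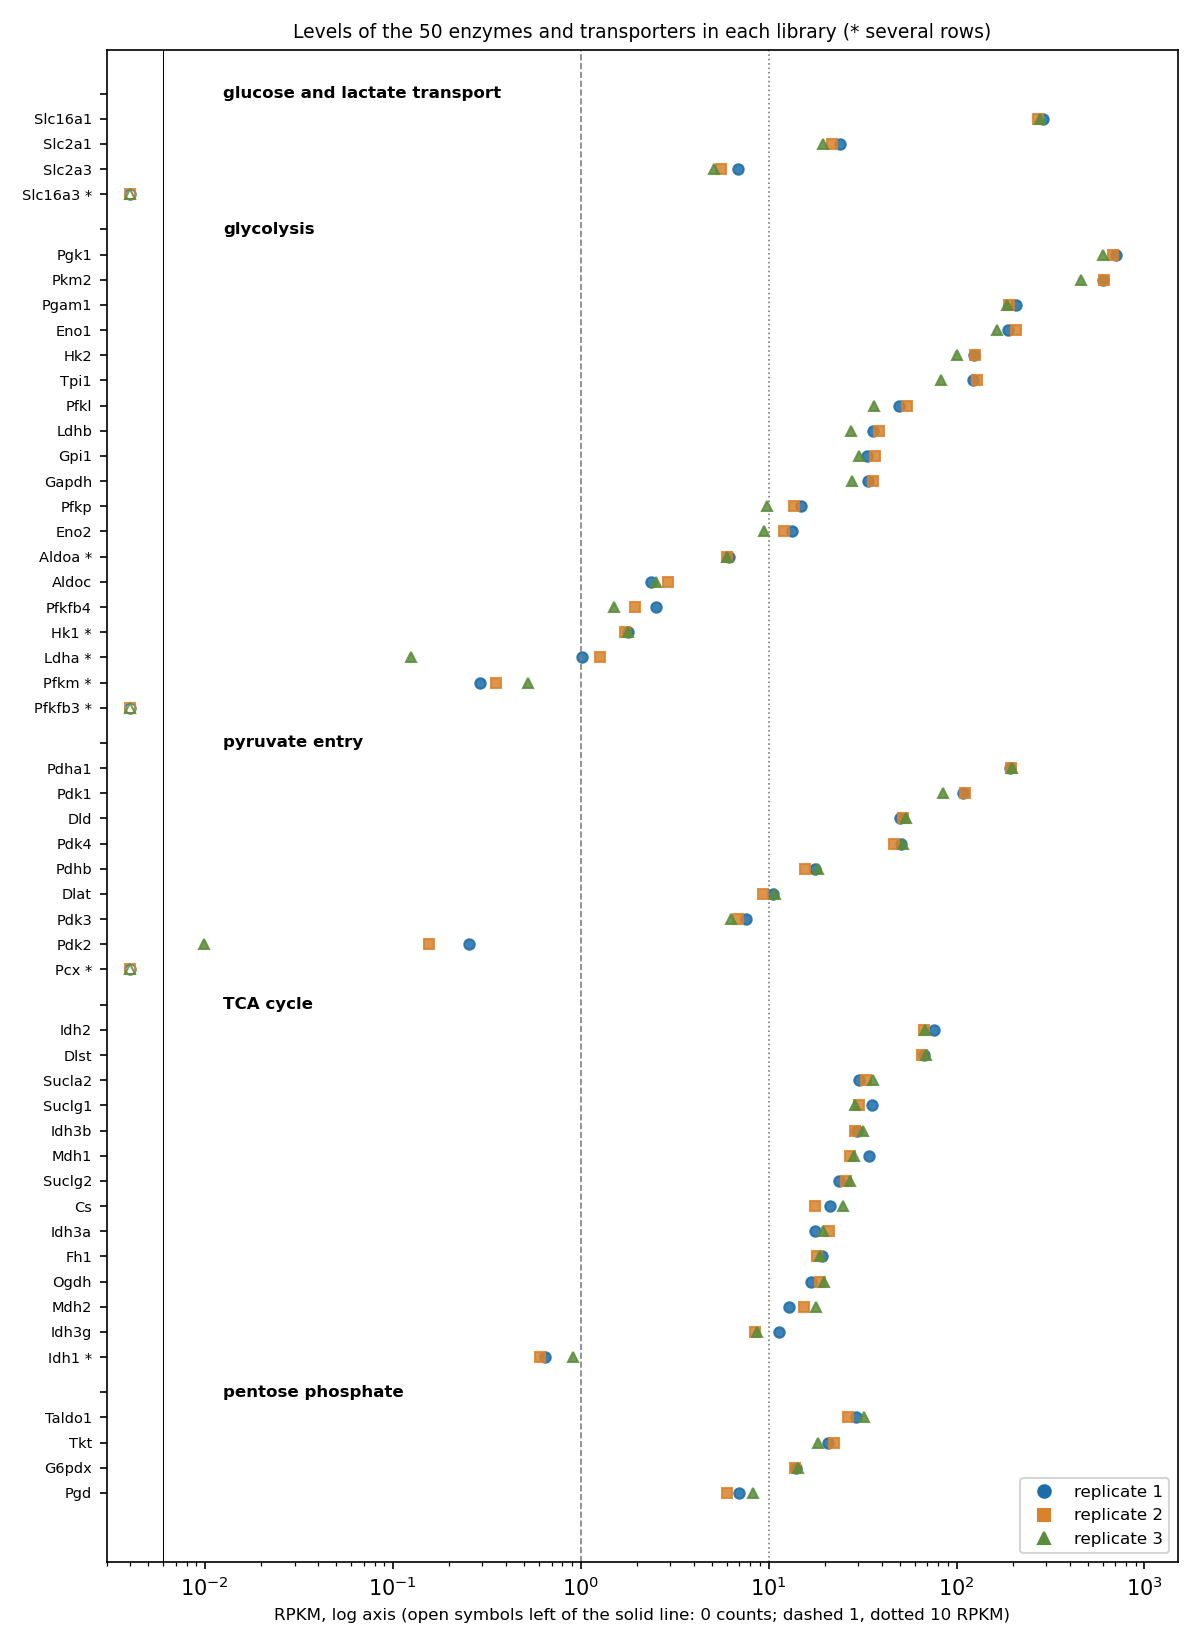
RPKM of each of the 50 genes in the 3 libraries, on a log axis, ordered by mean within each group; a star marks a gene with several rows, open symbols left of the solid line mark genes at 0 counts, and the vertical lines mark 1 and 10 RPKM. Pgk1 and Pkm2 stand highest at 663 and 558 RPKM, and 13 of the 14 TCA cycle genes lie between 9.49 and 70.4 RPKM.

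Among the transporters, the lactate and pyruvate carrier was far more abundant than the glucose carriers. Slc16a1, which encodes the monocarboxylate transporter MCT1, had 288, 272 and 277 RPKM in replicates 1, 2 and 3, from 44836, 44874 and 55557 counts. The basal glucose transporter Slc2a1 (GLUT1) had 24.1, 21.8 and 19.4 RPKM, and Slc2a3 (GLUT3), a carrier with high affinity for glucose, had 6.85, 5.61 and 5.12 RPKM. The ranges of the 3 genes did not overlap. Slc2a1 exceeded Slc2a3 by 3.68-fold within libraries, a log2 difference of 1.88 (95% interval 1.64 to 2.12, limma adjusted p = 0.000136 over 32 pairs). Slc16a3, which encodes the lactate exporter MCT4, had 3 rows and 0 counts in each library; a limit of 3 counts would be 0.0357, 0.0337 and 0.0278 RPKM in replicates 1, 2 and 3. As this gene is of the kind whose rows were often at 0, no ratio of the monocarboxylate carriers is drawn.

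Glycolysis held the highest values of the 5 groups, and the highest of them were on the later steps. Of its 19 genes, 16 were above 1 RPKM and 12 above 10 RPKM, against 43.2% and 20.6% of all genes tested. Pgk1, the phosphoglycerate kinase that makes the pathway's earliest ATP, had 704, 684 and 603 RPKM (edgeR adjusted p against 10 RPKM 4.22e-228). Pkm2, the name in the files for the gene of muscle pyruvate kinase, had 602, 613 and 460 RPKM; the counts do not separate its M1 and M2 splice forms. Both exceeded every other gene of the list in each library.

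The next levels belonged to enzymes on both sides of these steps. Pgam1, the phosphoglycerate mutase, had 207, 191 and 185 RPKM, and Eno1, the enolase of most tissues, had 188, 207 and 164 RPKM. Hk2, the hexokinase that traps glucose in insulin-responsive tissues and many growing cells, had 123, 125 and 100.3 RPKM. Tpi1, the triose phosphate isomerase, had 122, 129 and 82.7 RPKM. In these 4 genes the 3 libraries stayed well above 10 RPKM, and replicate 3 was the lowest.

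Middle levels were found for the rest of the main chain. Gpi1, which turns glucose 6-phosphate into fructose 6-phosphate, had 33.5 ± 3.34 RPKM (SD, n = 3) and Pfkl, the liver form of phosphofructokinase, 46.8 ± 9.41 RPKM. Ldhb, the lactate dehydrogenase subunit typical of heart, had 34.1 ± 5.90 RPKM. Gapdh, the dehydrogenase of glyceraldehyde 3-phosphate and a common reference gene, had 34.0, 36.1 and 27.8 RPKM from 1523, 1714 and 1601 counts. It did not differ detectably from Gpi1, with a log2 ratio of -0.04 (95% interval -0.28 to 0.20, limma adjusted p = 0.636). Pgk1, the next enzyme of the pathway, had 704, 684 and 603 RPKM; this pair was not tested.

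Isoenzymes of a step differed in most cases. Pfkp, the platelet phosphofructokinase, had 14.9, 13.7 and 9.83 RPKM and was below Pfkl by 3.64-fold (limma adjusted p = 0.000194). Its call above 10 RPKM was lost with the longest transcript length (edgeR adjusted p = 0.447) and without replicate 1 (0.0956). Eno2, the neuronal enolase, had 13.3, 12.1 and 9.42 RPKM, and Eno1 exceeded it by 16.0-fold (limma adjusted p = 3.94e-05); its own call above 10 RPKM (edgeR adjusted p = 0.0440) was lost without replicate 1 (0.472) or 2 (0.158), with DESeq2 (0.103), with limma (0.107), with a mean of at least 10 counts (0.0753), with rows averaged (0.0556) and with the longest length (0.908). Pfkfb4, a bifunctional enzyme that sets the level of a fructose bisphosphate activator of glycolysis, had 2.53, 1.95 and 1.51 RPKM, above 1 RPKM. Aldoc, the brain aldolase, was close to it at 2.37, 2.92 and 2.52 RPKM.

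The 5 glycolytic genes with several rows ranged from 0 to 6.05 RPKM. Aldoa, the muscle aldolase and the main form of most cells, had 322, 332 and 404 counts over its 3 rows (6.05 ± 0.0912 RPKM), and Hk1, the housekeeping hexokinase, had 235, 240 and 303 counts, all in 1 of its 2 rows (1.76 ± 0.0391 RPKM). Aldoa was above Aldoc when its rows were summed and below it when they were averaged, so their order is not given. Ldha, the lactate dehydrogenase subunit that favours lactate formation, had 57, 75 and 9 counts (1.02, 1.27 and 0.125 RPKM); replicate 3 stood far below the others, and the gene's level moved from below to above 1 RPKM without that library. Pfkm, the muscle phosphofructokinase, had 29, 37 and 67 counts (0.390 ± 0.121 RPKM), and it was below 1 RPKM by edgeR (adjusted p = 0.0282) but unresolved when replicate 1 (0.117) or 2 (0.125) was left out, with protein-coding library sizes (0.0942) and after GC correction (0.0609). Pfkfb3 had 8 rows and no counts.

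**Figure D2:**
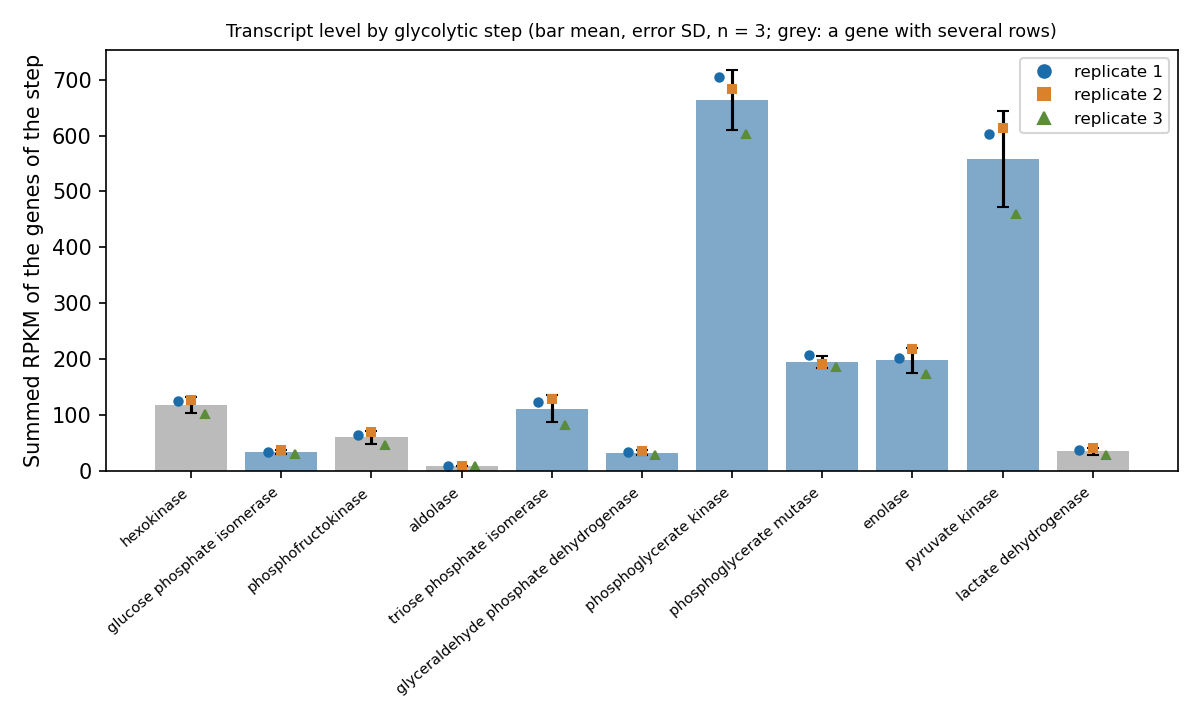
Summed RPKM of the genes of each glycolytic step, in pathway order; bars are means and error bars SD over 3 libraries, points are the libraries, and grey bars include a gene with several rows. Phosphoglycerate kinase (663 RPKM) and pyruvate kinase (558 RPKM) exceed the other steps as drawn, where the enolase copy Gm5506 (591 RPKM) is left out, and aldolase has the lowest bar at 8.66 RPKM.

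Summed over isoenzymes, the steps ran unevenly along the pathway. Hexokinase had 118 ± 13.8 RPKM, of which Hk2 made 98.5%. Phosphofructokinase had 60.0 ± 11.7 RPKM, of which Pfkl made 78.0%. Aldolase had 8.66 ± 0.218 RPKM and lactate dehydrogenase 34.9 ± 6.50 RPKM, 97.7% of it Ldhb. Each of these 4 steps contains a gene with several rows (Hk1, Pfkm, Aldoa and Ldha), so the shares of the other isoenzymes rest on counts that are uncertain. Enolase had 198 ± 22.9 RPKM without its near-identical copy Gm5506, which alone had 591 RPKM.

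Several of these enzymes have near-identical copies in the genome, and the files do not say how reads with several matches were counted. In a search of the annotated mouse transcripts, 12 of the 50 genes had pseudogene copies of at least 95% identity over at least 100 bases. Gapdh had 77 pseudogenes, which together matched 86.6% of its transcript; Ldha had 8, which matched 55.0%, and Pgk1 had 4, which matched 68.8%. A pseudogene matched 65.5% of Pkm2 and another 43.1% of Pgam1. Others matched 50.2% of Gpi1, 38.7% of Suclg2 and 19.3% of Tpi1. Eno1 had a copy listed in the files as Gm5506, 99.5% identical over 1736 bases, with 38249, 43242 and 40380 counts, or 591 ± 78.0 RPKM, more than Eno1 itself in every library. A pseudogene copy of Ldhb, Gm5514, had 1060, 1068 and 1143 counts (27.9 ± 2.48 RPKM), and a copy of Gapdh, Gm12070, had 328, 269 and 404 counts. How many reads passed between these genes and their copies was not tested, so the levels of these genes are uncertain. Pfkp shared 748 identical bases with the overlapping gene Pitrm1, which had 9.89 ± 1.95 RPKM. In contrast, 31 of the 42 genes with 1 row had no pseudogene copy, Hk2, Pfkl, Slc16a1 and Pdk1 among them.

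At the entry of pyruvate into the mitochondrion, 7 of 9 genes were above 1 RPKM and 5 above 10 RPKM. The shares of all genes tested were 43.2% and 20.6%. Pdha1, the catalytic alpha subunit of pyruvate dehydrogenase, had 193, 194 and 198 RPKM, the smallest spread relative to the mean among the 9 genes with a mean over 100 RPKM. Its partner Pdhb had 17.6, 15.6 and 18.4 RPKM, which was 11.3-fold lower within libraries (limma adjusted p = 3.94e-05), although both subunits are parts of 1 enzyme. Pdha1 shares 426 identical bases with the overlapping gene Map3k15, which had 24, 13 and 24 counts, and a pseudogene matched 71.3% of Pdhb. Dld, the lipoamide dehydrogenase used by several complexes, had 51.8 ± 1.71 RPKM and exceeded Dlat, the acetyltransferase core, by 5.04-fold (limma adjusted p = 0.000108). Dlat had 10.5, 9.29 and 10.9 RPKM and was unresolved against 10 RPKM (edgeR adjusted p = 0.751). With protein-coding library sizes it was called above 10 RPKM (log2 0.36, edgeR adjusted p = 0.000167), and after GC correction it was called below (log2 -0.32, edgeR adjusted p = 0.00190).

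The pyruvate dehydrogenase kinases, which phosphorylate the alpha subunit and switch the complex off, stood in a clear order. Pdk1, a known target of hypoxia-inducible factor, had 108, 111 and 84.3 RPKM. Pdk4, the kinase that rises in fasting, had 51.0, 46.3 and 52.1 RPKM. Pdk3 had 7.55, 6.86 and 6.30 RPKM. Pdk2, the most widespread form in many tissues, had 20, 13 and 1 counts, or 0.253, 0.155 and 0.00984 RPKM. The ranges of the 4 kinases did not overlap. Pdk1 exceeded Pdk4 by 2.02-fold (log2 1.01, 95% interval 0.58 to 1.44, limma adjusted p = 0.00472) and Pdk4 exceeded Pdk3 by 7.13-fold (limma adjusted p = 0.000107). Pdk2 was lower than each of the other kinases in every library; with so few counts the size of the gap depends on the pseudocount and no fold is given. Against 1 RPKM Pdk2 was unresolved by edgeR (adjusted p = 0.1001) and below by DESeq2 (0.0123) and by limma (0.00104). Pcx, pyruvate carboxylase, had 2 rows and no counts.

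Among the listed genes with 1 row, those of the TCA cycle lay within a narrower band than those of glycolysis. The list holds no gene of succinate dehydrogenase. Of its subunits, Sdhd had 0.0564 RPKM, while Sdha, Sdhb and Sdhc had 69.5, 35.3 and 50.5 RPKM. Of the 14 listed TCA cycle genes, 13 were above 1 RPKM and 12 above 10 RPKM, against 43.2% and 20.6% of all genes tested. The 13 genes with 1 row lay between 9.49 and 70.4 RPKM, while the 14 glycolytic genes with 1 row lay between 1.99 and 663 RPKM. Cs, citrate synthase, which joins acetyl-CoA to oxaloacetate, had 21.2, 17.8 and 24.7 RPKM. Fh1, fumarate hydratase, had 19.1, 18.2 and 18.8 RPKM. The highest mean of the 14 belonged to Idh2, the mitochondrial NADP-dependent isocitrate dehydrogenase, with 75.8, 67.1 and 68.3 RPKM. Dlst was slightly higher in replicate 3, at 68.6 RPKM. With the longest transcript length the order turned, as Idh2 had a mean of 43.1 RPKM and Dlst 66.9 RPKM. Idh1, the cytosolic relative of Idh2, had 52, 52 and 94 counts over 2 rows (0.720 ± 0.163 RPKM). Idh1 was unresolved against 1 RPKM (edgeR adjusted p = 0.264). It was called below 1 RPKM with its rows averaged (edgeR adjusted p = 0.0428) and after GC correction (0.0419).

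Subunits of the cycle's complexes were not at equal transcript levels. The NAD-dependent isocitrate dehydrogenase has a catalytic subunit from Idh3a (19.3 ± 1.62 RPKM) and regulatory subunits from Idh3b (30.0 ± 1.49 RPKM) and Idh3g (9.49 ± 1.58 RPKM). Idh3b exceeded Idh3a by 1.56-fold (limma adjusted p = 0.00564) and Idh3a exceeded Idh3g by 2.04-fold (limma adjusted p = 0.00642), each in 3 of 3 libraries. In the oxoglutarate dehydrogenase complex the core protein gene Dlst, with 66.9, 65.2 and 68.6 RPKM, exceeded the dehydrogenase gene Ogdh, with 16.7, 18.7 and 19.6 RPKM, by 3.64-fold (limma adjusted p = 0.000179). Both complexes of oxoglutarate and pyruvate share Dld.

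Succinyl-CoA ligase has an alpha subunit and alternative beta subunits, and malate dehydrogenase has a form in the cytosol and another in the mitochondrion. Sucla2, the ADP-forming beta subunit, had 33.1 ± 2.80 RPKM and Suclg2, the GDP-forming one, 25.6 ± 1.75 RPKM, a 1.29-fold difference (limma adjusted p = 0.0136) that missed the threshold without replicate 1 (0.0585) or replicate 2 (0.0937). A pseudogene matched 38.7% of Suclg2, while Sucla2 had no such copy. The shared alpha subunit Suclg1 had 35.4, 30.2 and 28.8 RPKM; its log2 ratio to Suclg2 was 0.30 (95% interval -0.09 to 0.69, limma adjusted p = 0.107). That ratio passed with the longest transcript length (log2 0.49, limma adjusted p = 0.0290) and after GC correction (log2 0.64, limma adjusted p = 0.0139). Mdh1, the cytosolic malate dehydrogenase, had 34.2, 27.0 and 28.6 RPKM and Mdh2, the mitochondrial one, 12.8, 15.5 and 17.9 RPKM, so their ranges did not overlap. The 1.95-fold difference (limma adjusted p = 0.0110) fell to a log2 ratio of 0.11 after correction for GC content (adjusted p = 0.610). Cs and Idh3a, which lie in the opening part of the cycle, differed by a log2 ratio of 0.13 (95% interval -0.33 to 0.58, limma adjusted p = 0.480).

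All 4 pentose phosphate genes were above 1 RPKM and 3 were above 10 RPKM, against 43.2% and 20.6% of all genes tested. G6pdx, glucose 6-phosphate dehydrogenase and the gate of the oxidative branch, had 14.0, 13.8 and 14.4 RPKM, and Pgd, which makes the pathway's other NADPH, had 6.96, 6.01 and 8.28 RPKM. G6pdx exceeded Pgd by 1.99-fold in 3 of 3 libraries (limma adjusted p = 0.00226). In the branch that returns sugars to glycolysis, Taldo1, transaldolase, had 29.2, 26.4 and 32.1 RPKM and Tkt, transketolase, had 20.6, 22.2 and 18.4 RPKM. The 1.43-fold gap between them (limma adjusted p = 0.0290) missed the threshold without replicate 1 (0.128) or replicate 3 (0.0615).

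**Figure D3:**
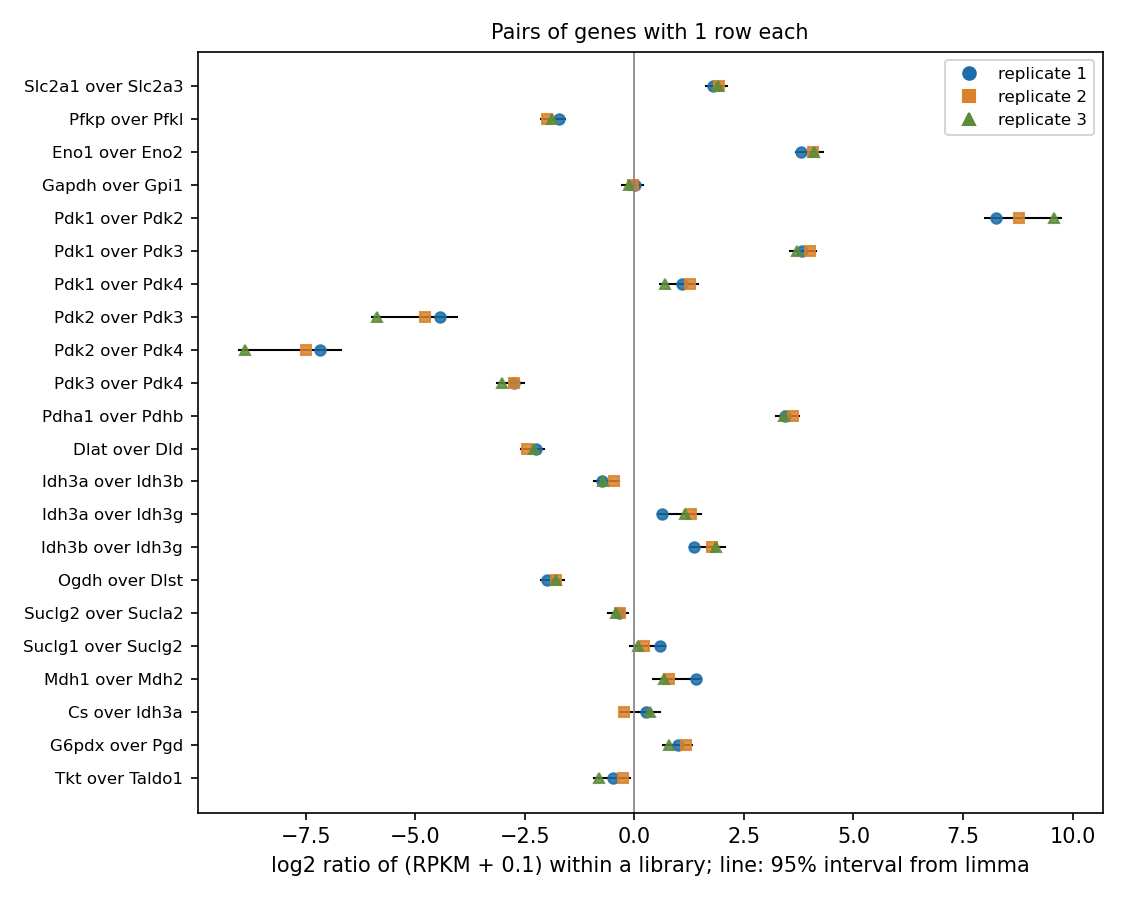
Log2 ratio of (RPKM + 0.1) within each library for the 22 pairs whose genes both have 1 row; points are the 3 libraries and lines the 95% intervals from limma. The intervals of Gapdh over Gpi1, Suclg1 over Suclg2 and Cs over Idh3a cross 0, and those of the other 19 pairs do not.

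In all, 32 pairs were compared within libraries. They were isoenzymes, subunits, enzymes at a shared branch, or enzymes of different steps, such as Gapdh and Gpi1 or Cs and Idh3a. The share that would differ among other pairs of genes was not measured. Of the 32 pairs, 29 differed at a limma adjusted p under 0.05. The 29 include 3 pairs in which a gene was at 0 in every library, so that their outcome was fixed, and Aldoa over Aldoc, whose order depended on how rows were combined. Each of the 29 had the same sign in 3 of 3 libraries. Of the 22 pairs in which both genes had 1 row, 19 differed, as the plot of log2 ratios by pair shows; the other 10 pairs held a gene with several rows. The largest of these gaps was between Pdk1 and Pdk2, and the smallest that passed was between Sucla2 and Suclg2.

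The 3 libraries carry the same treatment, yet the glycolytic genes varied together among them. Replicate 3 had the lowest RPKM for 12 of the 12 glycolytic genes with 1 row and a mean of at least 5 RPKM. Their median log2 difference from the mean of the other libraries was -0.37, ranging from Pgam1 at -0.10 to Tpi1 at -0.60. Over all 6135 genes of the same kind, 28.8% were lowest in replicate 3, 44.3% were highest, and the median difference was 0.05. Of the TCA cycle genes, 1 of 13 was lowest in replicate 3 and 7 were highest, with a median difference of 0.05, led by Cs at 0.35 and Mdh2 at 0.34. Summed over the 19 glycolytic genes, the level was 2142, 2154 and 1748 RPKM in replicates 1, 2 and 3.

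**Figure D4:**
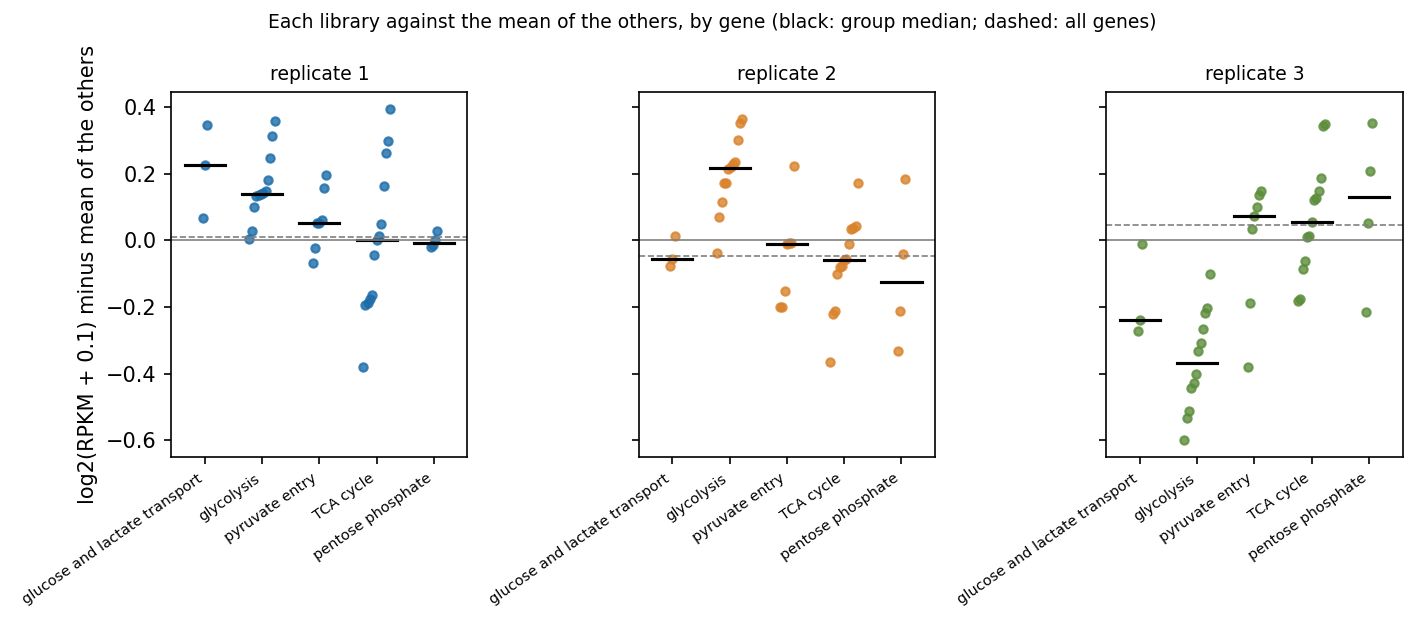
Log2(RPKM + 0.1) of each gene in 1 library minus the mean of the other libraries, for the 39 genes with 1 row and a mean of at least 5 RPKM, by group; black bars are group medians and dashed lines the median over all such genes in the data. All 12 glycolytic genes lie below 0 in replicate 3, with a median of -0.37, while the TCA cycle median is 0.05.

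The pattern in the glycolytic genes was recomputed under other scalings, which were chosen after the data were seen. After correction for GC content, replicate 3 was again lowest for 12 of 12. It was so too with TMM factors and with protein-coding library sizes, but that outcome was fixed in advance. The TMM factors (1.003, 0.9811 and 1.016 in replicates 1, 2 and 3) and protein-coding shares (80.27, 78.63 and 80.33%) enlarge replicate 3 most. Both scalings could therefore only lower replicate 3 against the others. The count for the TCA cycle was 4, 2 and 1 of 13 with TMM, protein-coding sizes and GC correction. The share of all genes was 33.9, 31.0 and 29.4% in that order. Beyond the pathway's core, replicate 3 was lowest for 2 of 3 transporters, with Slc2a1 at -0.24. Of the 7 pyruvate entry genes, Pdk1 (-0.38) and Pdk3 (-0.19) were lowest in replicate 3, while 5 were highest in it. Of the 4 pentose phosphate genes, Tkt (-0.21) was lowest in it and 3 were highest. With the main scaling, 28.8% of all genes of the same kind were lowest in replicate 3 and 44.3% were highest. Replicate 3 was also the most deeply sequenced library, and it held the fewest Dmp1 counts. The summed level of the 12 osteoblast and osteocyte markers was 13129, 12189 and 11667 RPKM in replicates 1, 2 and 3. Sparc, Col1a2 and Ibsp made most of this sum, and more of the single markers were lowest than highest in replicate 3. Pdpn (155, 129 and 184 RPKM), Mepe and Fgf23 were highest in it. Ibsp (2430, 2117 and 1608 RPKM), Col1a1 (464, 537 and 463 RPKM), Col1a2, Alpl, Spp1, Phex and Dmp1 were lowest in it. Sparc was lowest in replicate 2, and Sost was at 0 in replicates 2 and 3. The sum of the 6 adipocyte markers was 11.3, 11.1 and 17.3 RPKM, and that of the 6 macrophage markers 14.2, 14.9 and 13.0 RPKM. Fabp4 (7.04, 8.89 and 13.2 RPKM) and Adipoq (2.07, 0.643 and 2.94 RPKM) made most of the adipocyte sum and were highest in replicate 3. Cfd and Cidec were lowest in replicate 3, Lep was highest in replicate 2 and Plin1 was at 0. Lyz2 (13.8, 13.2 and 11.7 RPKM) made most of the macrophage sum. The part of depth or of the make-up of the cultures in the pattern was not tested, and with 1 treatment group it has no replicate check.

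Other genes of these pathways were taken from lists of carriers, enzymes and regulators. Of 86 listed genes 85 were found, 13 of them with several rows. Of the 85, 45 were above 1 RPKM, 8 below, 25 unresolved and 7 at 0, while 28 were above 10 RPKM. Each of the 7 at 0 had several rows, so their 0 is not read as low expression. Of the 72 with 1 row, 42 were above 1 RPKM, against 45.4% of all tested symbols with 1 row. Over all genes tested, 43.2% were above 1 RPKM, 13.5% below it and 20.6% above 10 RPKM. In transport, 3 of 14 were above 1 RPKM, led by Emb (30.8 ± 1.94 RPKM), a chaperone of monocarboxylate carriers, and followed by the sugar carriers Slc2a13 (3.29 RPKM), Slc2a10 (2.66 RPKM) and Slc2a12 (1.00 RPKM, unresolved). In glycolysis and gluconeogenesis, 6 of 21 were above 1 RPKM. These were led by Pck2, the mitochondrial phosphoenolpyruvate carboxykinase (32.3 ± 2.37 RPKM), Pfkfb2 (23.7 ± 1.45 RPKM over 4 rows), Adpgk, an ADP-dependent glucokinase (22.3 ± 2.04 RPKM), and Bpgm, which makes bisphosphoglycerate (18.2 ± 2.09 RPKM).

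Both subunits of the mitochondrial pyruvate carrier were present, Brp44l (Mpc1) at 66.4 ± 15.1 RPKM and Brp44 (Mpc2) at 23.0 ± 2.01 RPKM. Pdhx, which anchors Dld in the pyruvate complex, had 16.7 ± 0.385 RPKM and Dbt, of the branched-chain complex, 11.3 ± 1.06 RPKM; 5 of the 7 listed pyruvate entry genes that were found were above 1 RPKM. In the TCA cycle and citrate handling list, 17 of 19 were above 1 RPKM. The share above 1 RPKM over all genes tested was 43.2%. Sdha, the flavoprotein of succinate dehydrogenase, had 69.5 ± 2.46 RPKM, Sdhc 50.5 ± 6.11 RPKM and the malic enzyme Me1 48.3 ± 3.29 RPKM. In the pentose phosphate list 6 of 8 were above 1 RPKM, led by Rpe (34.7 ± 3.70 RPKM), Rpia (14.1 ± 1.52 RPKM), Prps1 (11.5 ± 0.404 RPKM) and Prps2 (10.3 ± 1.89 RPKM).

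Among 16 regulators, 8 were above 1 RPKM, 3 below, 1 unresolved and 4 listed at 0, each of the 4 with several rows; the shares over all genes tested were 43.2% above and 13.5% below. Hif1a, the oxygen-regulated subunit of hypoxia-inducible factor, had 174, 156 and 199 RPKM and was highest in replicate 3. Of the 7 regulators with 1 row and a mean of at least 5 RPKM, 5 were lowest in that library. Their median log2 difference was -0.31. Over all genes of that kind, 28.8% were lowest in replicate 3 and the median difference was 0.05. Vhl, which marks the Hif1a subunit for degradation, had 66.2 ± 6.99 RPKM. The prolyl hydroxylases Egln1 and Egln3 had 60.5 ± 10.2 and 26.5 ± 5.96 RPKM.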

How the data were processed

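The deposited files held whole numbers per transcript row, which were read as counts; their names say RPKM, but values that were whole and summed to at least 35195518 per library were not taken as that unit. Per the submitters' processing notes TopHat and build mm9 were used; how reads were counted, with which annotation and with what handling of strand and multiple matches, is not given in the sources used here. Rows were summed per symbol. RPKM was computed from the median length over the basic transcripts of GENCODE M21 (GRCm38); 23080 of 25410 symbols matched, 2240 of them through RefSeq synonyms, and held 96.46, 96.4 and 96.35% of the counts in replicates 1, 2 and 3. The count model was edgeR 4.0.16 (R 4.3.3): quasi-likelihood with an intercept and, as offset, the count expected at 1 or 10 RPKM, over the 21044 genes with a count in any library. Pairs were tested with limma 3.58.1 on differences of log2(RPKM + 0.1) within a library; a fold is on that scale. Alternatives were DESeq2 1.42.0, limma, TMM and protein-coding library sizes, a mean of at least 10 counts, other lengths, other ways to combine rows, GC correction, a pseudocount of 1 and leaving out each library. Copies were found with blastn 2.17.0. Limits at 0 are 3 counts and cover counting error only. Scripts were tested on simulated data. The members and lists were chosen with earlier results of these data known. Named were all 50 genes, of each other list the 4 with the highest mean RPKM, and markers that check the label; 1 of these genes is not reported here. Promoter windows came from RefSeq (GRCm38.p6); of the 70 windows of these genes, 57 had their end in a GENCODE transcript.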

Additional observations from a re-analysis of the deposited data

How the results depend on the processing

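Of 1541 values recomputed under the alternatives, nearly all of single genes and pairs, 1499 were unchanged. A gene or pair was unchanged where it kept its direction and its side of the threshold. The values also include counts and shares of genes lowest in replicate 3, which have no such threshold. Of these, 2 counts for the TCA cycle moved. The number of the 50 genes above 1 RPKM was 43 without any 1 library, and that above 10 RPKM was 32 to 34. The number below 1 RPKM, 1 in the report, was 0 with protein-coding library sizes, 2 with DESeq2, 2 with limma, 2 with rows averaged, 0 among genes with 1 row (chosen after the data were seen), and 0 to 1 with a library left out. Over all genes, 2832 were below 1 RPKM, against 1813 with protein-coding library sizes, 6513 with DESeq2, 9625 with limma and 917 to 2571 with a library left out. Below 10 RPKM there were 6 genes with 1 row, against 11 in all, and 19 pairs with 1 row each differed, against 29 in all; fewer genes and pairs are counted there. Directions turned, as log2 values, for Hk1 against 1 RPKM with rows averaged (-0.18), for Ldha against 1 RPKM with protein-coding library sizes (0.012), the shortest length (0.89) and without replicate 3 (0.19, with a range of -0.81 to 0.19 over the libraries left out), for Aldoa against 10 RPKM with the shortest length (0.28), for Eno2 against 10 RPKM with the longest length (-0.013), for Dlat against 10 RPKM after GC correction (-0.32) and without replicate 3 (-0.016, with a range of -0.016 to 0.095), for Idh3g against 10 RPKM with protein-coding library sizes (0.25), for Aldoa over Aldoc with rows averaged (-0.35) and for Gapdh over Gpi1 after GC correction (0.17); the cause was not tested. No paired analysis was possible because the libraries form 1 group. With 20 or fewer counts a library, as for Pdk2, counting error alone is wide.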

Other observations

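Some genes outside the 50 were chosen after their values were seen. Sdhd, a membrane anchor of succinate dehydrogenase, had 1 row and 0, 2 and 7 counts in replicates 1, 2 and 3, while its partner Sdhc had 50.5 RPKM and Sdhb had 35.3 RPKM. Bsg, the common chaperone of the MCT1 carrier, had 26, 17 and 8 counts over 2 rows, while Emb had 30.8 RPKM. Arnt, the partner of Hif1a in its factor, had 2 rows and was listed at 0. Epas1, a relative of Hif1a, had 75, 89 and 196 counts (0.535 ± 0.218 RPKM) and was below 1 RPKM by edgeR's quasi-likelihood test.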
